A study of Mus musculus with 63 samples.

Results

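The genes described here are 38 transcripts that fibroblasts are known to make: matrix proteins, the enzymes that crosslink or cut them, and the receptors, cytoskeletal proteins and transcription factors of the cells that lay them down. They were chosen by name, with no measured value in the rule, and all 38 were found among the 24990 rows of each deposited table. Rows of Loxl2 and Pdgfra each also carry a microRNA gene that lies inside them, so reads of either cannot be told apart there.

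The study sequenced polyadenylated RNA of R1 mouse embryonic stem cells and of neural progenitor cells (NPCs) made from them, in 63 libraries that form 21 groups of 3. Its genotype series held 2 lines with a deleted Meteor promoter (pKO1, pKO2), 1 line with that promoter inverted (pInv) and 2 wild-type lines (WT1, WT2). Each of these lines was sequenced as NPCs, in serum and in 2i. Its perturbation series held 2 CRISPR knockdown lines of Meteor (KD1, KD2) and 1 empty-vector line (Ctrl), as NPCs and in serum. Meteor is the long non-coding RNA locus that the series is about. NPCs came from stem cells kept for a pair of passages on gelatin without feeders, and were collected after 4 days in neuronal differentiation medium that lists neither serum nor LIF. Stem cells in serum grew on mouse embryonic fibroblast feeders in medium with 15% fetal calf serum and LIF at 10 ng/ml. Stem cells in 2i grew on the same kind of feeders without serum, with the MEK inhibitor PD0325901 at 1 µM, the GSK3 inhibitor CHIR99021 at 3 µM and LIF at 10 ng/ml. No label says whether feeders were taken out before RNA was extracted, and replicate 3 of the Ctrl NPC group has no growth protocol. Whether the 3 libraries of 1 group came from separate cultures is not stated, so p-values measure the spread between these libraries, which may be technical.

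Feeders are fibroblasts that have been stopped from dividing and that supply attachment and signals to stem cells plated on them. Fibroblasts secrete fibrillar collagens, collagen VI, fibronectin and fibulins, tie collagen and elastin together with lysyl oxidases, and coat collagen fibrils with small leucine-rich proteoglycans such as biglycan, decorin and lumican. In culture with serum many of them turn on smooth-muscle actin and its partners, the contractile programme of the myofibroblast, which depends on serum response factor and on TEAD factors. Early embryonic and neural progenitor cells make some of the same proteins, among them vimentin, fibronectin and SPARC, so none of these transcripts belongs to fibroblasts alone.

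Libraries held 7566629 to 18553323 counts. Platr11, an annotated non-coding transcript close to Eomes and the nearest named readout of the Meteor locus, was 0 to 0.367 CPM (counts per 1000000 counts of a library) in pKO and pInv libraries, against 4.56 to 26.9 CPM in WT libraries. It was 0.497 to 4.10 CPM in KD libraries and 8.31 to 23.9 CPM in Ctrl libraries. Sox1, a neural progenitor transcription factor, was 22.8 to 319.5 CPM in the 24 NPC libraries and 0 to 2.06 CPM in the 24 serum libraries. Pou5f1, the pluripotency factor, was still 187 to 872 CPM in NPC libraries, against 420.0 to 1085 CPM in serum libraries. No library was left out.

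Summed over all 38 genes, the level was lowest in NPCs and highest in serum. Fibronectin (Fn1), which embryonic cells also make, was the largest single part of the sum in 2i libraries. There it did not rise with the other genes, at a Pearson correlation of -0.31 with their summed level (15 libraries). In WT lines Fn1 was 365 CPM in NPCs and 4188 CPM in serum, with counts pooled over 6 libraries each. In the genotype series the sum was 1267 to 2585 CPM in NPC libraries, 8628 to 37150 CPM in serum libraries and 4550.4 to 7448 CPM in 2i libraries, with no overlap between the 3 states. That sum is 0.127% to 0.259% of a library in NPCs, 0.863% to 3.72% in serum and 0.455% to 0.745% in 2i. In the perturbation series it was 849 to 1438 CPM in NPC libraries and 3155 to 10053 CPM in serum libraries. In bulk RNA, fewer fibroblasts, less RNA per fibroblast and less RNA of these genes from other cells cannot be told apart.

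**Figure D1:**
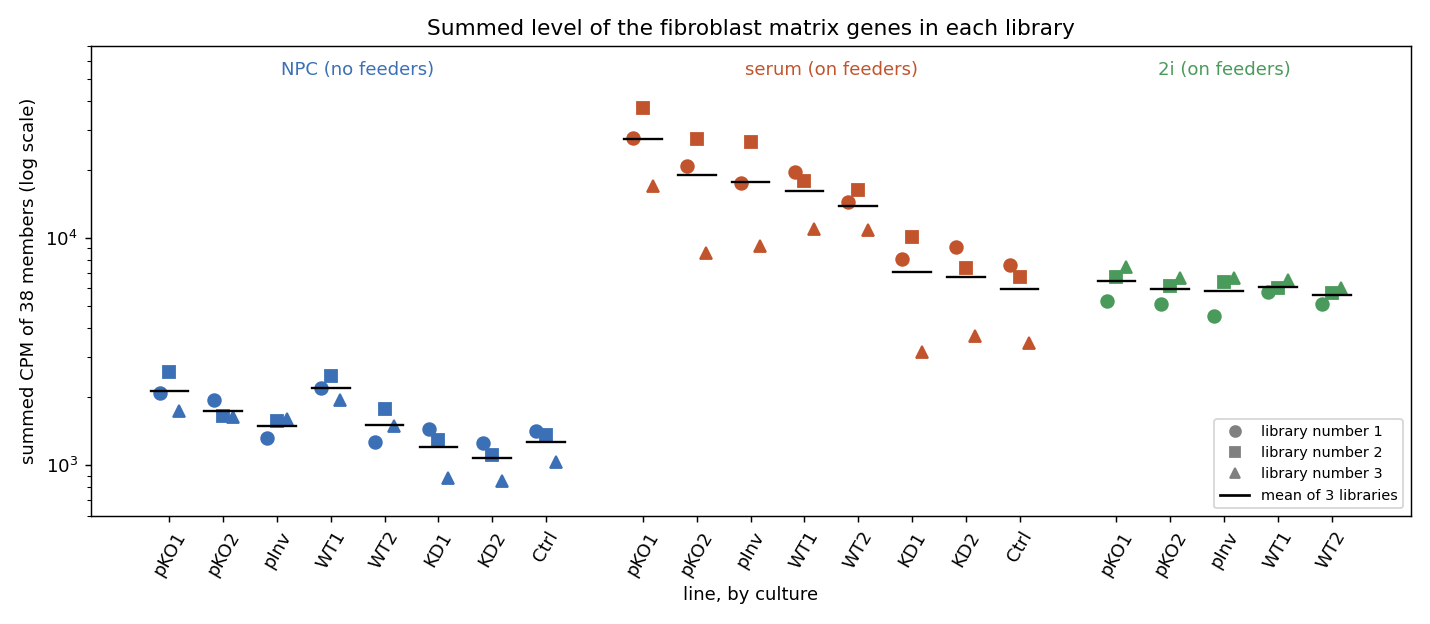
Summed CPM of the 38 genes in each of the 63 libraries (log scale), by line and culture, with 1 marker per library number and a line at the mean of the 3. NPC libraries lie between 849 and 2585 CPM, serum libraries between 3155 and 37150 CPM and 2i libraries between 4550.4 and 7448 CPM.

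Levels went with the library number, in serum and for many genes also in 2i. In serum, replicate 3 had a lower sum than replicates 1 and 2 in all 5 genotype lines and all 3 perturbation lines, at a median of 0.525 and 0.449 times the mean of those 2. The same ratio was 1.18 in 2i, 0.912 in NPCs of the genotype series and 0.718 in NPCs of the perturbation series. In 2i the sum had medians of 5145, 6150 and 6636 CPM in replicates 1, 2 and 3. Many single genes moved further there than the sum. Col6a3, Acta2 and Col1a1 had median ratios of 1.98, 1.94 and 1.63 in 2i, above 1 in all 5 lines. Fbln1, Dcn and Mmp2 lay below 1 in 2i, at 0.997, 0.941 and 0.846. No fit left out all 2i libraries of 1 number. In serum of the genotype series all 38 genes had a median ratio below 1, from 0.311 to 0.956, and 35 of them were lower in every line. Fibulin 1 (Fbln1) held the ratio of 0.956, and in the perturbation series its ratio was 1.10, the only one above 1. Results that rest on serum libraries are therefore given below with and without replicate 3 where that moves them, a choice made after seeing the data. The interactions between genotype and state were not refitted without it.

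NPCs without feeders were compared first with serum cultures on feeders, a contrast in which medium and differentiation differ too. In WT lines 36 of 38 genes fell and none rose in NPCs (edgeR quasi-likelihood test, Benjamini-Hochberg adjusted p under 0.05 over 15145 genes, 18 libraries). Of all genes tested, 66.3% were called in this contrast, 34.3% as lower, and the median log2 fold change was -0.02 over all genes and -3.64 over the 38. In 35 of the 38, every WT NPC library was below every WT serum library. The share of all genes with no such overlap was not counted, so how unusual this is cannot be said. The 2 genes with no call were Mmp2 and Twist1.

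**Figure D2:**
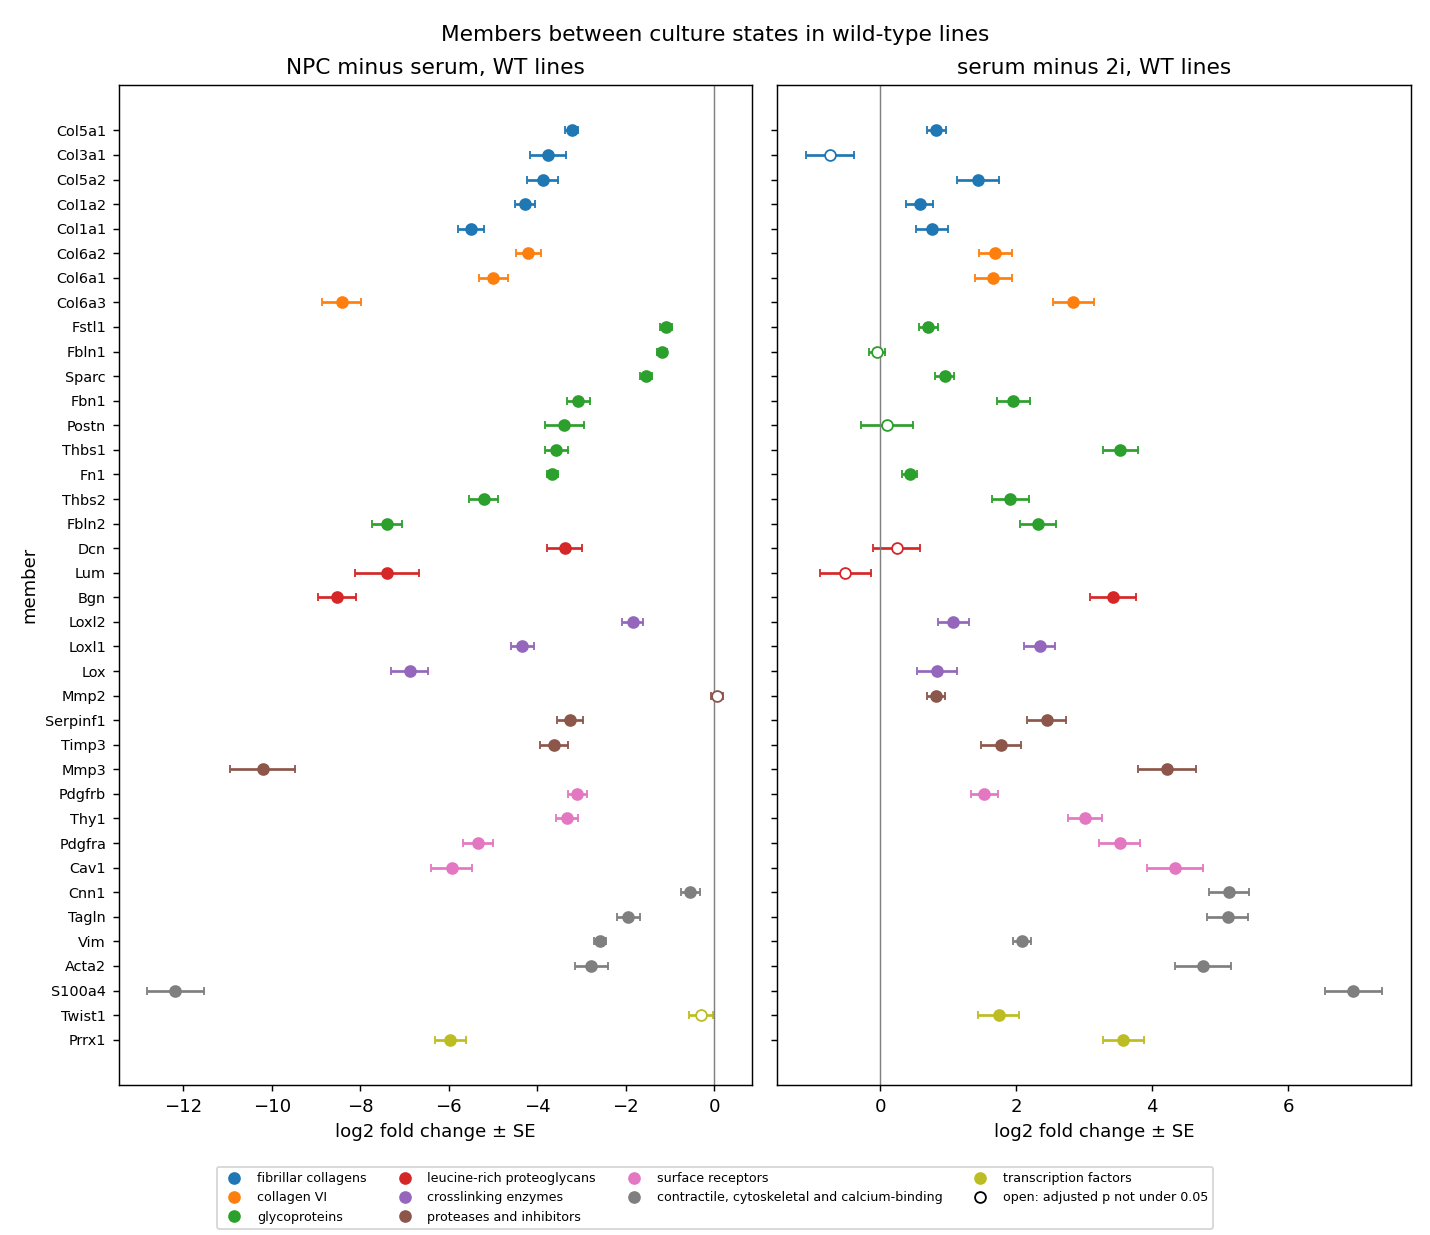
Log2 fold change ± SE of each of the 38 genes in WT lines, NPC minus serum at the left and serum minus 2i at the right, grouped and coloured by role, with open circles where the adjusted p was not under 0.05. At the left Mmp2 and Twist1 sit at 0.07 and -0.29 while S100a4 and Mmp3 lie beyond -10. At the right S100a4, Cnn1, Tagln and Acta2 lie highest, at 6.96, 5.13, 5.11 and 4.75, and Col3a1, Lum and Fbln1 lie below 0.

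Fibrillar collagens fell in 5 of 5 cases, with log2 fold changes of -5.50 to -3.22. Col1a1, the larger chain of type I collagen, was 8.19, 22.3 and 45.6 CPM (lowest, median and highest of 6) in WT NPCs, against 568, 881 and 1175 CPM in WT serum libraries. No WT NPC library came near a WT serum library, and the log2 fold change was -5.50 ± 0.29 (SE; adjusted p 3.14e-11, edgeR). Collagen VI, the beaded-filament collagen of the pericellular matrix, fell in 3 of 3 genes. Col6a1 was 1.36, 2.89 and 3.85 CPM in WT NPCs, against 47.6, 89.5 and 119 CPM in WT serum libraries, a log2 fold change of -4.99 ± 0.33 (adjusted p 4.37e-10, edgeR). Col6a3, which encodes a longer chain of the same collagen, fell further, by 8.42 ± 0.44 on the log2 scale.

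All 9 glycoproteins fell, over a range from -7.39 to -1.08. Fibronectin (Fn1), the cell-adhesion protein with the highest TPM of its role in WT stem cells, was 257, 386 and 418 CPM in WT NPCs, against 3547, 4041 and 5339 CPM in WT serum libraries. The groups stood far apart, at a log2 fold change of -3.65 ± 0.13 (adjusted p 2.20e-13, edgeR). Fibulins 1 and 2, which bind fibronectin and basement membranes, moved by unequal amounts. Fbln1 was 26.5, 33.6 and 42.6 CPM in WT NPCs and 49.8, 73.6 and 88.5 CPM in WT serum libraries, at -1.17 ± 0.12. Fbln2 was 1.28, 3.21 and 3.42 CPM in WT NPCs and 245, 484 and 692 CPM in WT serum libraries, at -7.39 ± 0.35.

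The leucine-rich proteoglycans fell in 3 of 3 cases, and the lysyl oxidase family in 3 of 3. Biglycan (Bgn) was 1.49, 3.11 and 5.01 CPM in WT NPCs, against 569, 1214 and 1679 CPM in WT serum libraries, at -8.52 ± 0.44 (adjusted p 2.22e-11, edgeR). Lysyl oxidase (Lox) was 0.184, 1.72 and 6.98 CPM in WT NPCs, against 97.6, 214 and 321 CPM in WT serum libraries, at -6.88 ± 0.42. Loxl2 fell less, by 1.84 ± 0.24 on the log2 scale. Lumican (Lum) had 2 counts in all over the 6 WT NPC libraries.

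Proteases and their inhibitors divided. Serpinf1, which encodes the secreted serpin PEDF, was 12.8, 17.6 and 29.2 CPM in WT NPCs, against 83.4, 185 and 291 CPM in WT serum libraries, at -3.26 ± 0.30 (adjusted p 3.15e-08, edgeR). Mmp3, stromelysin 1, had no count in any of the 6 WT NPC libraries, against 3.72, 12.1 and 19.6 CPM in WT serum libraries. It was at least 325-fold lower, taking 3 counts over the 6 libraries as the floor. Mmp2, the gelatinase A that cuts collagen IV, was 39.6, 65.3 and 83.2 CPM in WT NPCs, against 43.9, 56.6 and 64.6 CPM in WT serum libraries. These ranges overlap, at 0.07 ± 0.13 (adjusted p 0.649, edgeR).

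The genes grouped as surface receptors, with the membrane protein caveolin 1 counted among them, fell in 4 of 4 cases. Thy1, a GPI-anchored protein used to sort fibroblasts and also made by neurons, was 10.5, 15.6 and 18.9 CPM in WT NPCs, against 73.9, 141 and 204 CPM in WT serum libraries, at -3.32 ± 0.25 (adjusted p 2.85e-09, edgeR). The PDGF receptors Pdgfra and Pdgfrb were at -5.33 ± 0.34 and -3.10 ± 0.21, and caveolin 1 (Cav1) was at -5.93 ± 0.46.

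The contractile and cytoskeletal genes fell in 5 of 5 cases by very unequal amounts. S100a4, a calcium-binding protein used as a fibroblast marker in mice, had no count in any of the 6 WT NPC libraries, against 20.9, 45.7 and 70.3 CPM in WT serum libraries, so it was at least 1270.5-fold lower by the same floor. Vimentin (Vim), the intermediate filament protein of mesenchymal and neural progenitor cells alike, was 193, 289.7 and 397 CPM in WT NPCs, against 1182, 1499 and 2200 CPM in WT serum libraries, at -2.59 ± 0.14. Calponin 1 (Cnn1), an actin-binding protein of smooth muscle, was 14.4, 27.2 and 38.2 CPM in WT NPCs and 24.4, 35.8 and 50.1 CPM in WT serum libraries. These ranges overlap, at -0.54 ± 0.22 (adjusted p 0.0386, edgeR).

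Of the 2 transcription factors, Prrx1, a homeobox factor of limb and craniofacial mesenchyme, fell and Twist1, a basic helix-loop-helix factor of mesoderm and neural crest, had no call. Prrx1 was 0.776, 1.35 and 5.10 CPM in WT NPCs, against 58.2, 101 and 138 CPM in WT serum libraries, at -5.96 ± 0.35 (adjusted p 1.08e-10, edgeR). Twist1 was 5.42, 6.06 and 7.87 CPM in WT NPCs and 5.05, 7.22 and 10.2 CPM in WT serum libraries. The Twist1 ranges overlap almost wholly, at -0.29 ± 0.28 (adjusted p 0.367, edgeR).

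How much of the serum level was left in NPCs thus differed by gene. With counts summed over the 6 WT libraries of each state, the median gene kept 9.06% of its serum CPM. Below 1% were 6 genes (Bgn, Col6a3, Lum, Fbln2, Mmp3 and S100a4), 15 lay from 1% to 10%, 9 from 10% to 25% and 8 at 25% or more. Those 8 were Mmp2 at 114%, Twist1 at 86.2%, Cnn1 at 76.6%, Fstl1 at 49.7%, Fbln1 at 45.4%, Sparc at 37.8%, Tagln at 31.6% and Loxl2 at 31.0%. These shares have exact 95% intervals that cover counting error only, such as 0.263% to 0.335% for Bgn and 0.0722% to 2.18% for Lum. These 8 genes were thus present at 25% or more of their serum level in cultures described as grown without feeders. Feeders, medium and differentiation differ together between NPCs and serum cultures, so their parts cannot be told apart.

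**Figure D3:**
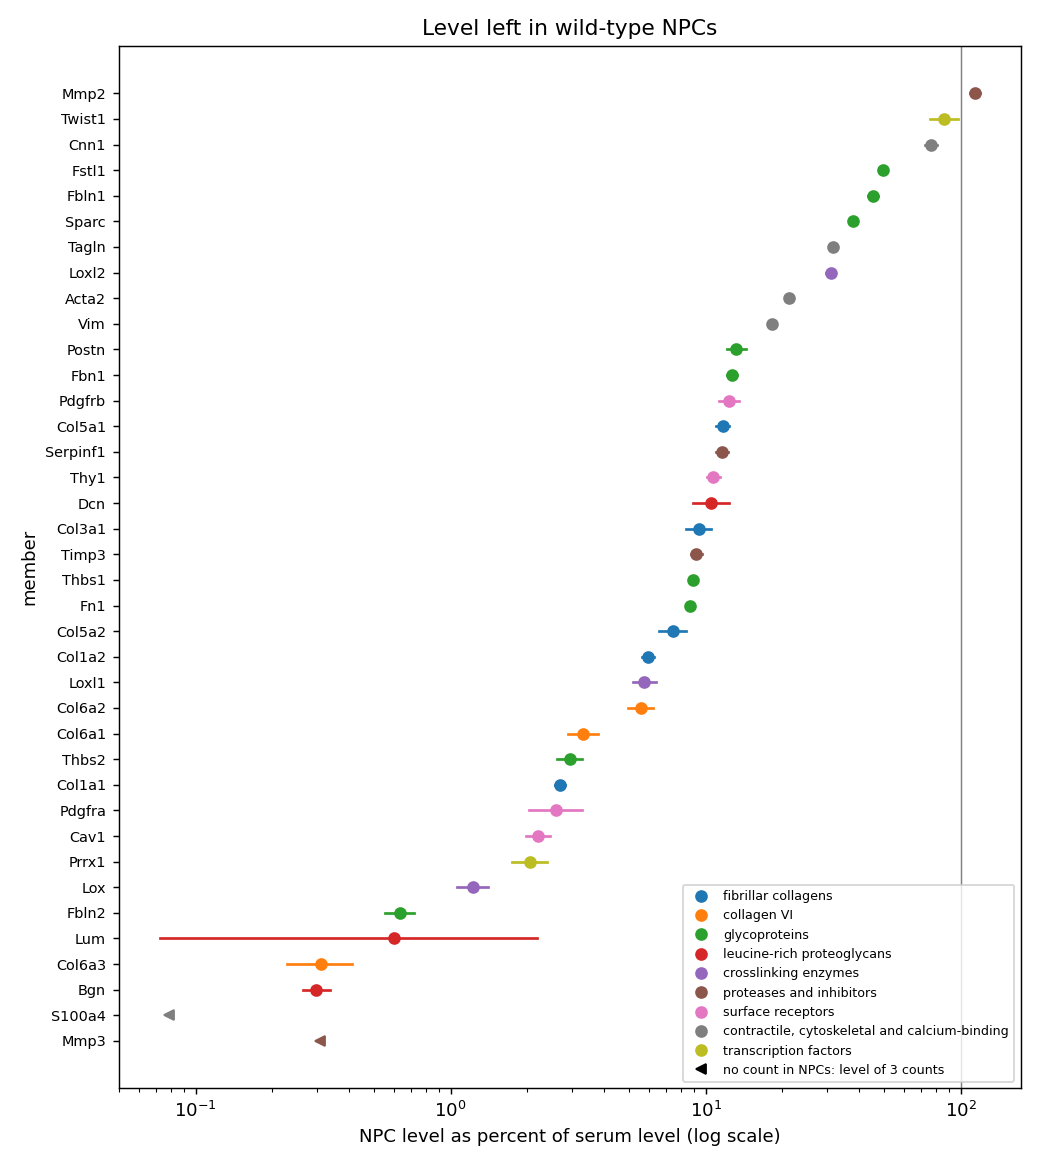
Level left in WT NPCs as a percent of the WT serum level (log scale), from counts summed over 6 libraries each, with bars for the exact 95% counting interval and triangles for genes with no count in NPCs, drawn at the level of 3 counts. Mmp2 is the single gene above 100%, and Bgn at 0.297% and Col6a3 at 0.309% are the lowest with a count.

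The other lines gave like counts in the same contrast. In pKO lines 37 genes fell and none rose in NPCs, where 61.6% of all genes were called, 33.4% as lower, with a median log2 fold change of -4.39. In pInv 35 fell and none rose (46% of all genes called, 23.8% as lower, median -4.44). In KD lines 33 fell and 1 rose (67.6%, 34% as lower, median -3.75), and in Ctrl 31 fell and none rose (54.4%, 27.2% as lower, median -3.07). Twist1 was the gene that rose in KD lines, at 0.82 ± 0.31 (adjusted p 0.0282, edgeR), and without replicate 3 of the serum libraries it was at 0.44 with an adjusted p of 0.0852. That call was also lost in 6 of 12 fits that left out 1 library (adjusted p up to 0.0756, edgeR). The genes without a call were Twist1 in pKO lines, Mmp2, Cnn1 and Twist1 in pInv, and Fstl1, Loxl2, Mmp2 and Cnn1 in KD lines. Ctrl had those 4 together with Sparc, Tagln and Twist1. The counts of genes at 25% or more were 7 in pKO lines, 6 in pInv, 9 in KD lines and 11 in Ctrl.

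Serum cultures had more RNA of most of these genes than 2i cultures, both on feeders, and the amount depended on role. In WT lines 33 of 38 genes rose and none fell in serum against 2i (edgeR quasi-likelihood test). Of all genes, 59% were called in this contrast, 29.5% of all as higher, and the median log2 fold change was 0.00 over all genes and 1.76 over the 38. In pKO lines 34 rose (57.1% of all genes called, 30.6% as higher, median 2.49), and in pInv 31 rose (43.9%, 22.5% as higher, median 2.21), with none lower in either. Every WT serum library was above every WT 2i library for 26 of the 38 genes, a count that was not set against the share over all genes.

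The contractile and cytoskeletal genes stood out by size, with a median of 5.11 over 5 genes, all of which rose. Smooth-muscle actin (Acta2) was 689.5, 1007 and 1536 CPM in WT serum libraries, against 14.4, 44.0 and 58.4 CPM in WT 2i libraries, at 4.75 ± 0.41 (adjusted p 1.63e-08, edgeR). Transgelin (Tagln), its actin-bundling partner, was 250.01, 320.4 and 425 CPM in WT serum libraries and 4.92, 10.7 and 12.5 CPM in WT 2i libraries, at 5.11 ± 0.30. S100a4 was 20.9, 45.7 and 70.3 CPM in WT serum libraries and 0, 0.319 and 0.706 CPM in WT 2i libraries, at 6.96 ± 0.42. No serum library overlapped a 2i library for any of these 3 genes, and Vim, at 2.09 ± 0.13, had the smallest difference of the 5.

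Surface receptors (median 3.26, 4 of 4 rose), transcription factors (2.66, 2 of 2), proteases and inhibitors (2.11, 4 of 4) and collagen VI (1.69, 3 of 3) came next. Thy1 was 73.9, 141 and 204 CPM in WT serum libraries and 7.87, 19.4 and 22.0 CPM in WT 2i libraries, at 3.01 ± 0.25 (adjusted p 1.05e-08, edgeR). Prrx1 was 58.2, 101 and 138 CPM in WT serum libraries and 4.74, 7.51 and 12.3 CPM in WT 2i libraries, at 3.57 ± 0.30. Serpinf1 was at 2.44 ± 0.29 and Mmp3 at 4.21 ± 0.43.

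The bulk structural genes differed least. Crosslinking enzymes had a median of 1.07 (3 of 3 rose), glycoproteins 0.94 (7 of 9), fibrillar collagens 0.76 (4 of 5) and leucine-rich proteoglycans 0.24 (1 of 3). Col1a1 was 568, 881 and 1175 CPM in WT serum libraries and 346, 510.4 and 685 CPM in WT 2i libraries, ranges that overlap, at 0.76 ± 0.24 (adjusted p 0.0108, edgeR). Fn1 was 3547, 4041 and 5339 CPM in WT serum libraries and 2762, 2893 and 3632 CPM in WT 2i libraries, at 0.43 ± 0.11 (adjusted p 0.00334). The 5 genes with no call were Col3a1 at -0.74 ± 0.35, Lum at -0.52 ± 0.38, Fbln1 at -0.05 ± 0.12, Postn at 0.09 ± 0.38 and Dcn at 0.24 ± 0.34. Lox, at 0.83 ± 0.30 (adjusted p 0.0228), lost its call with DESeq2 and in 5 of 12 fits that left out 1 library (adjusted p up to 0.0924). Bgn, at 3.42 ± 0.33, was the proteoglycan that rose, while its relatives Dcn and Lum had no call.

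The balance between contractile and collagen transcripts can be read within a library, on the per-length TPM scale. Acta2, Tagln and Cnn1 together had 15.4 ± 4.31 times the TPM of the 5 fibrillar collagens in WT NPCs, 2.93 ± 0.579 times in WT serum libraries and 0.149 ± 0.0346 times in WT 2i libraries (SD, n = 6 each). The ranges were 8.53 to 19.8, 2.13 to 3.82 and 0.104 to 0.188, with no overlap between states. pKO lines had 18.6 ± 5.39, 2.74 ± 0.531 and 0.154 ± 0.0302 (n = 6 each), and pInv had 12.3 ± 5.20, 3.02 ± 0.536 and 0.158 ± 0.0220 (n = 3 each). KD lines had a ratio of 28.4 ± 15.3 in NPCs and 5.72 ± 1.01 in serum (n = 6 each), and Ctrl had 35.7 ± 34.4 in NPCs and 6.12 ± 0.631 in serum (n = 3 each). The wide spread in perturbation NPCs went partly with the library number. The ratio was 53.1 and 35.6 in replicate 1 of KD1 and KD2 and 75.4 in replicate 1 of Ctrl. It was 34.3 in replicate 3 of KD2 and 13.4 to 18.5 in the other 5 libraries. Cnn1 was 34.8 to 52.2 CPM in the 3 libraries numbered 1 and 4.38 to 11.05 CPM in the other 6.

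**Figure D4:**
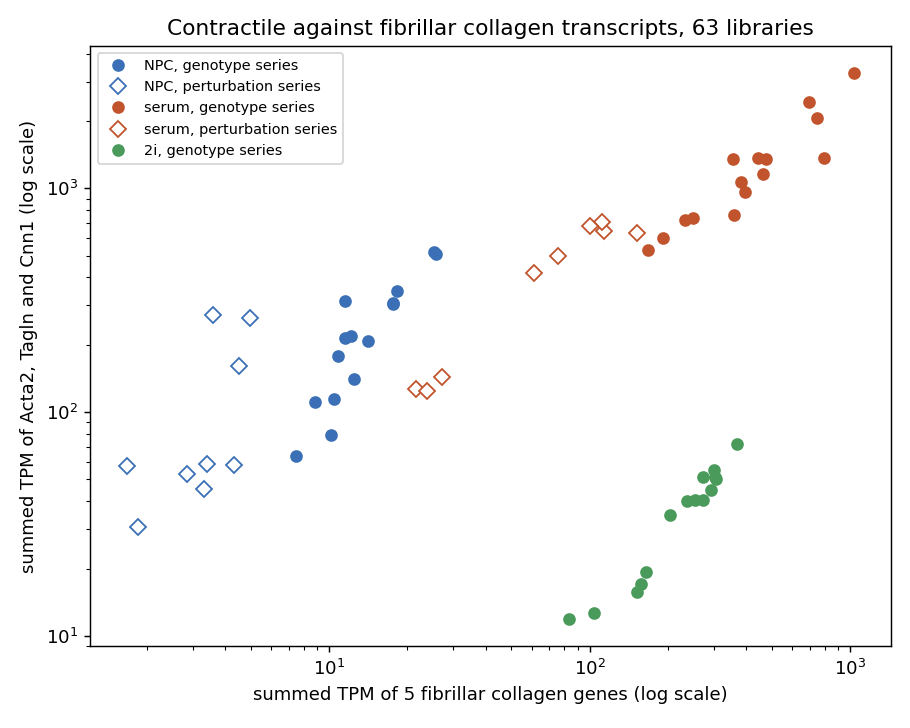
Summed TPM of Acta2, Tagln and Cnn1 against summed TPM of 5 fibrillar collagen genes in 63 libraries (log axes), coloured by culture, with open diamonds for the perturbation series. At like collagen levels the 2i libraries lie well below the serum libraries, with WT ratios of 0.149 against 2.93, and NPC libraries have the lowest collagen and WT ratios of 15.4.

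To show what sequence lies before genes of different roles, 250 bases before the annotated start are shown for 1 contractile gene, 1 fibrillar collagen gene and the protease Mmp3, from RefSeq (GRCm38.p6, whereas the deposited tables were made on mm9). Capitals mark GGAATG, the core that TEAD factors bind, in Acta2 (chr19:34255374-34255623, minus strand), CCAAT in Col1a2 (chr6:4505368-4505617, plus strand) and TGAGTCA, an AP-1 site, in Mmp3 (chr9:7445572-7445821, plus strand).
Acta2: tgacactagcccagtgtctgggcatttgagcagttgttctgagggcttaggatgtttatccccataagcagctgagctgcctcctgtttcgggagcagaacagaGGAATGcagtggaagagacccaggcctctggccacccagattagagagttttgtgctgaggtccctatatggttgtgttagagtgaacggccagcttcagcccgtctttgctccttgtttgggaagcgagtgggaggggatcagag
Col1a2: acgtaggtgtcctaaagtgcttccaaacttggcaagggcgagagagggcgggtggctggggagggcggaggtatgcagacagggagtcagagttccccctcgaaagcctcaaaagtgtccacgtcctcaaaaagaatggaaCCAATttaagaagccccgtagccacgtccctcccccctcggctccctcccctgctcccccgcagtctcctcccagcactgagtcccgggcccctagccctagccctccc
Mmp3: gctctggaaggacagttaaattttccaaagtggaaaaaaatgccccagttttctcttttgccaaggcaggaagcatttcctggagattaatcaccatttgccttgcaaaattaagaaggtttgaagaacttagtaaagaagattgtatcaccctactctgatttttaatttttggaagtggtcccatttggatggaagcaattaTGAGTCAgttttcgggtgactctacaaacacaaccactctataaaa
Promoters were in the table for 25 of the 38 genes. Searched on both strands, GGAATG was found for 4 of the 25 and in 12.6% of all 32851 promoter windows. CCAAT was found for 6 and in 33.8%, and TGACTCA or TGAGTCA for 2 and in 4.46%. The strict CArG pattern of serum response factor, CC, then 6 letters A or T, then GG, was found for 0 and in 1.47%. Looser CArG forms with a G or C inside were not searched for, so their absence is not shown. The Acta2 window holds ccctatatgg and ccttgtttgg, which are of this looser form. The motifs searched for did not follow role: of the contractile and cytoskeletal genes Cnn1 and Vim held CCAAT, and of the collagens Col3a1 and Col6a2 held GGAATG. Matches to different motifs can share end letters, which was not counted. A match is a description of the letters in these windows only.

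Within serum the 38 genes moved together from library to library. Over the 15 serum libraries of the genotype series, log2(CPM + 0.5) of 36 genes had a Pearson correlation over 0.8 with the summed level of the others, and the median was 0.961. Such correlations can reflect each library's depth or its fibroblast content, which was not measured, and are given as a description. The 2 others were Fbln1 at 0.305 and Mmp2 at 0.665. In 2i 20 genes were over 0.8 (median 0.836), with Fn1 at -0.31 and Mmp2 at -0.24 as the lowest. In NPCs of the genotype series 3 genes were over 0.8 (median 0.506), and Mmp2, Col6a2, Fbln1 and Thy1 were below 0. Fbln1 and Mmp2, which kept 45.4% and 114% of their serum level in WT NPCs, were also the 2 with the lowest values in these 15 serum libraries. The other genes that kept 25% or more did follow the rest there. Cnn1 was at 0.897, Twist1 at 0.903, Tagln at 0.911, Loxl2 at 0.964, and Sparc and Fstl1 at 0.980. Over all 24 serum libraries the lowest were Fbln1 at -0.10 and Twist1 at 0.782, with Mmp2 at 0.877, and in the 9 of the perturbation series they were Fbln1 at -0.33 and Lum at 0.606.

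Whether the Meteor promoter deletion changes these genes was compared within each state. In NPCs 35 genes were tested, since Lum, Mmp3 and S100a4 were too low, and 4 rose and 3 fell in pKO lines against WT lines (edgeR quasi-likelihood test), where 8.05% of all 14511 genes were called. The median log2 fold change was 0.16 over the 35 and 0.01 over all genes. With each line as 1 replicate, 2 against 2, none of the 7 kept its call.

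Twist1 rose most evenly. It was 13.5, 12.5 and 13.8 CPM in pKO1 and 19.3, 11.4 and 15.6 CPM in pKO2, against 5.42, 7.20 and 5.58 CPM in WT1 and 5.70, 6.41 and 7.87 CPM in WT2. Every pKO library was above every WT library, at 1.21 ± 0.18 (adjusted p 0.00129, edgeR), a call kept in all 12 fits that left out 1 library. Col5a1, a minor fibrillar collagen that starts fibril assembly, was 28.5, 24.7 and 18.3 CPM in pKO1 and 21.6, 22.2 and 19.2 CPM in pKO2, against 22.9, 20.2 and 14.6 CPM in WT1 and 14.2, 13.6 and 13.5 CPM in WT2. WT1 overlaps the pKO lines, at 0.50 ± 0.15 (adjusted p 0.0438), and the call was lost with library-size scaling (adjusted p 0.0646), with no low-count filter (0.0746) and in 10 of 12 fits that left out 1 library (adjusted p up to 0.119).

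Lox and Bgn rose mainly through pKO1. Lox was 32.1, 45.04 and 3.45 CPM in pKO1 and 8.40, 10.1 and 3.10 CPM in pKO2, against 1.85, 6.98 and 3.62 CPM in WT1 and 0.184, 0.808 and 1.59 CPM in WT2, at 2.92 ± 0.59 (adjusted p 0.00759, edgeR). Bgn was 15.4, 36.9 and 5.18 CPM in pKO1 and 3.25, 11.5 and 2.66 CPM in pKO2, against 2.50, 3.64 and 2.71 CPM in WT1 and 3.50, 5.01 and 1.49 CPM in WT2, at 1.79 ± 0.49 (adjusted p 0.0332). Replicates 1 and 2 of pKO1 were the high libraries for both genes, and replicate 3 lay within or near the WT range. Without replicate 2 of pKO1 Bgn was at 1.31 with an adjusted p of 0.102, and its call was lost in 7 of 12 fits that left out 1 library, while that of Lox was kept in all 12. All 3 pKO1 libraries had less Bgn than any serum library, the lowest of which was 137 CPM. For Lox, replicate 2 of pKO1 was above the 3 perturbation serum libraries numbered 3, at 35.5 to 44.7 CPM, and below all genotype serum libraries.

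The PDGF receptor Pdgfrb, the marker of pericytes and mesenchymal cells, and Thy1 fell. Pdgfrb was 2.34, 3.45 and 2.68 CPM in pKO1 and 2.68, 1.76 and 2.74 CPM in pKO2, against 5.92, 5.53 and 7.99 CPM in WT1 and 4.88, 6.14 and 7.67 CPM in WT2, at -1.24 ± 0.29 (adjusted p 0.0165, edgeR). Thy1 was 9.86, 9.75 and 9.23 CPM in pKO1 and 4.94, 7.85 and 9.03 CPM in pKO2, against 11.98, 10.5 and 15.2 CPM in WT1 and 16.0, 18.9 and 18.4 CPM in WT2, at -0.80 ± 0.19 (adjusted p 0.0179). For both genes every pKO library was below every WT library. The Pdgfrb call was lost at adjusted p values of 0.0505 to 0.0509 without replicate 3 of WT1, replicate 3 of WT2 or replicate 2 of pKO2, and the Thy1 call at 0.0550 without replicate 3 of WT1.

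Mmp2 fell with pKO2 low and WT2 high, and with pKO1 and WT1 alike. It was 56.5, 50.8 and 52.4 CPM in pKO1 and 26.2, 26.2 and 39.7 CPM in pKO2, against 56.7, 39.6 and 45.7 CPM in WT1 and 77.6, 73.9 and 83.2 CPM in WT2, at -0.55 ± 0.15 (adjusted p 0.0373, edgeR). All pKO1 libraries lay within the WT1 range and all WT2 libraries above the other 3 lines, and the call was lost in 10 of 12 fits that left out 1 library. Xist, the X-inactivation RNA, was also called higher in pKO NPCs, at 1.69, and 5 of 7 extraembryonic endoderm genes and 2 of 4 early mesoderm genes tested were higher there. Xist was 57.6 to 116 CPM in pKO2 and 5.08 to 10.2 CPM in WT2. In pKO1 it was 25.6 to 36.3 CPM, within the WT1 range of 24.6 to 39.8 CPM. The extraembryonic endoderm sum was 52.1 to 75.4 CPM in pKO2 and 23.0 to 30.8 CPM in pKO1. It was 40.6 to 57.9 CPM in WT1 and 26.9 to 48.0 CPM in WT2. The part of these genes in the 7 calls was not tested.

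**Figure D5:**
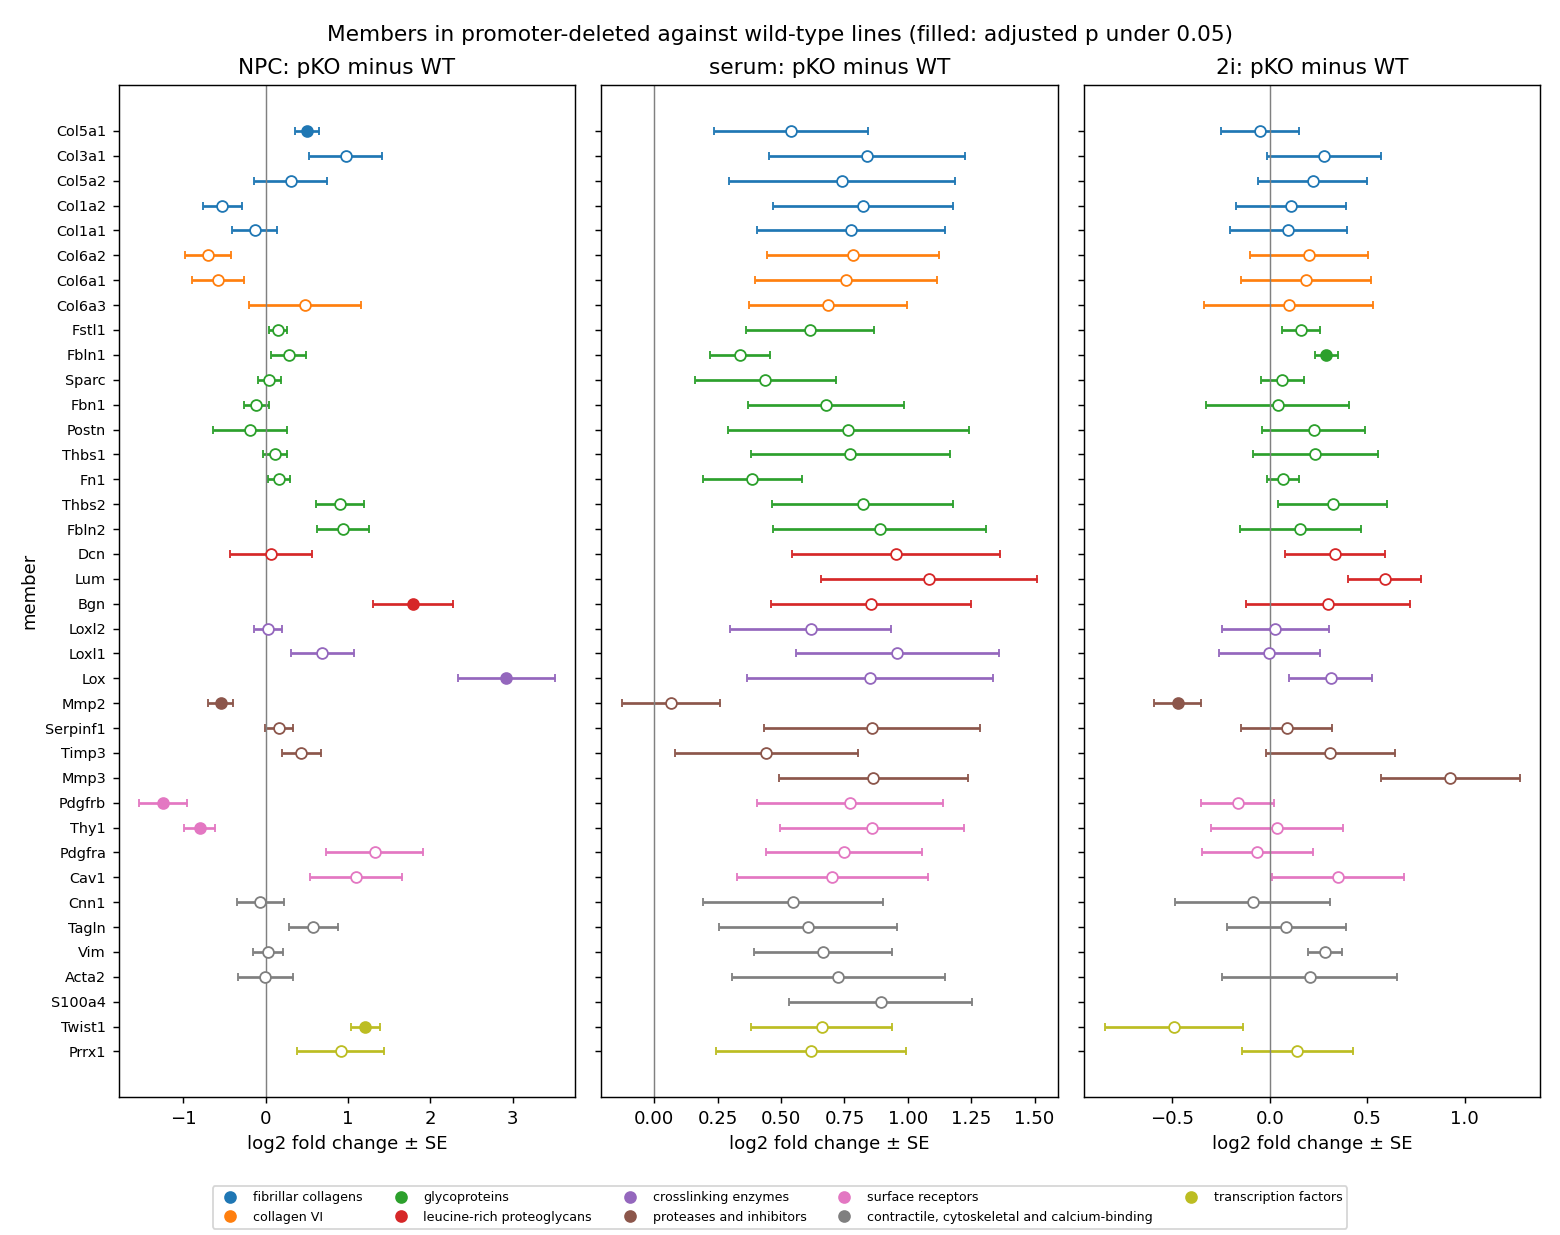
Log2 fold change ± SE of each gene in pKO against WT lines, in NPCs, serum and 2i, coloured by role, with filled circles where the adjusted p was under 0.05. In serum every gene lies above 0, from 0.07 to 1.08, with no call in the fit shown, which has no replicate block. In NPCs Lox at 2.92 and Pdgfrb at -1.24 mark the ends of the 7 calls.

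In serum all 38 genes had a higher estimate in pKO than in WT lines and none was called in the fit without a replicate block. The median was 0.75, with a range of 0.07 to 1.08, against 0.02 over all genes, and 52.7% of all genes had a positive value. With an unadjusted p under 0.05 there were 18 of the 38, against 23.4% of all genes, and 5.95% of all 14197 genes were called after adjustment (edgeR quasi-likelihood test). DESeq2 also called none, again without a block. With the replicate number as a block 31 of the 38 were called, all higher, where 2887 of all 14197 genes were called (edgeR). The numbers miss the bar for pairing there, with 29 of 30 pairs over 0.1 and a lowest correlation of 0.097. Since the 38 move together in serum, their common sign is not 38 separate observations.

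The summed level shows the same in single libraries. It was 27466, 37150 and 16966 CPM in replicates 1, 2 and 3 of pKO1 and 20635, 27399 and 8628 CPM in pKO2, against 19600, 17826 and 10913 CPM in WT1 and 14433, 16337 and 10817 CPM in WT2. Within replicate 1 both pKO lines were above both WT lines, at a mean ratio of 1.41, and within replicate 2 likewise at 1.89. Within replicate 3 the mean ratio was 1.18, with pKO1 above and pKO2 below both WT lines. Leaving out replicate 3 of pKO2 alone gave 2 calls. A fit without replicate 2 of all serum libraries, where the ratio was largest, was also run, and its calls are not given here. Without replicate 3 of all serum libraries 23 genes rose in pKO lines and none fell (edgeR; 11.2% of all genes were called so), among them Bgn at 0.90 ± 0.15 (adjusted p 0.0100), Col1a1 at 0.95 ± 0.19 (0.0145), Thy1 at 0.93 ± 0.19 (0.0163) and Vim at 0.81 ± 0.12 (0.00690). Other fibroblast and macrophage genes had the same sign in serum: 25 of 25 other fibroblast genes and 14 of 14 macrophage genes tested had positive values, at medians of 0.75 and 0.58, with no call. Macrophage markers summed to 237 to 649.5 CPM in pKO serum libraries and 226 to 499 CPM in WT serum libraries, and none of the 15 was at 0 throughout. Xist had medians of 141 CPM in pKO and 71.5 CPM in WT serum libraries, at 0.94 with no call. Early mesoderm genes summed to a median of 67.5 CPM in pKO and 196 CPM in WT serum libraries, and Mixl1 was called lower. The part of these genes in the shift was not tested.

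In 2i Fbln1 rose and Mmp2 fell among 37 genes tested, where 9.06% of all 13938 genes were called (edgeR quasi-likelihood test), and the median over the 37 was 0.16. Fbln1 was 81.5, 90.1 and 88.0 CPM in pKO1 and 77.6, 90.8 and 86.2 CPM in pKO2, against 86.1, 98.0 and 89.2 CPM in WT1 and 53.4, 60.1 and 56.6 CPM in WT2. WT2 alone was low, so the difference of 0.29 ± 0.06 (adjusted p 0.00927) lies between that line and the other 3. Mmp2 was 22.0, 28.9 and 24.6 CPM in pKO1 and 17.4, 19.5 and 17.1 CPM in pKO2, against 27.1, 25.3 and 21.0 CPM in WT1 and 46.7, 36.7 and 29.0 CPM in WT2, at -0.47 ± 0.12 (adjusted p 0.0263), a call lost in 8 of 12 fits that left out 1 library. Here the replicate numbers pair the libraries, and with the replicate number as a block 13 genes were called, 12 of them higher (20.9% of all genes were called so), the largest being Mmp3 at 0.92 ± 0.29 and Lum at 0.59 ± 0.11.

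Whether the state contrast itself differed between genotypes was tested as an interaction over the 45 genotype libraries. The difference of NPC minus serum between pKO and WT lines was called for 2 genes, where 4.02% of all genes were called (edgeR quasi-likelihood test). It was -2.06 ± 0.46 for Pdgfrb (adjusted p 0.00797) and -1.70 ± 0.48 for Thy1 (adjusted p 0.0389). Both estimates take in the higher serum estimates of pKO lines as well as the fall in pKO NPCs. Interactions were not refitted without replicate 3 of the serum libraries, so how far they rest on it was not tested. For the difference of serum minus 2i none of the 38 was called, 3 had an unadjusted p under 0.05 (13.5% of all genes did), DESeq2 called none either, and 1.13% of all genes were called.

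Comparing pInv with WT lines gave no call. No gene of the 38 passed in NPCs, serum or 2i by edgeR or by DESeq2, with 1, 0 and 0 at an unadjusted p under 0.05, against 6.99%, 4.86% and 12.6% of all genes. After adjustment 0.0138%, 0.0563% and 0.911% of all genes were called. The median differences were -0.18, 0.34 and -0.03. With 1 library left out the serum median ran from -0.17, without replicate 2 of pInv, to 0.68, without replicate 3 of pInv. The 2i median ran from -0.24, without replicate 3 of pInv, to 0.24, without replicate 1 of pInv. The median standard errors were 0.35, 0.43 and 0.35 in NPCs, serum and 2i, so differences of the size seen for most pKO genes in serum could not be told from 0. The pInv line is 1 line with 3 libraries per state. Its summed levels were 1320.4, 1566 and 1591 CPM in NPCs, against 1267 to 2470.2 CPM in WT NPCs. They were 17375, 26384 and 9237 CPM in pInv serum libraries, against 10817 to 19600 CPM in WT serum libraries.

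Knockdown gave no call either. In KD against Ctrl lines none of the 33 genes tested in NPCs and none of 38 in serum passed by edgeR or by DESeq2, and 0% of all genes did so in each state. At an unadjusted p under 0.05 there were 2 in NPCs, Col5a2 at 0.90 and Twist1 at 0.45, and 1 in serum, Postn at 0.83, where 1.33% and 1.01% of all genes had such a p. In serum 37 of 38 genes had a positive value, against 52.8% of all genes. Since the 38 move together in serum, this common sign is not a set of separate observations. Over all genes the median was 0.01, and over the 38 it was 0.36, with a median standard error of 0.54. That median was -0.03 without replicate 3 of Ctrl and 0.83 without replicate 1 of Ctrl, and it was 0.07 without replicate 1 of KD2, 0.19 without replicate 2 of KD1, 0.56 without replicate 3 of KD1 and 0.56 without replicate 3 of KD2. The summed level was 3155 to 10053 CPM in the 6 KD serum libraries and 3438, 6745 and 7623 CPM in the 3 Ctrl serum libraries, which overlap. It was 849 to 1438 CPM in KD NPC libraries and 1035, 1358 and 1419 CPM in Ctrl NPC libraries. The interaction with state called none, with 1 at an unadjusted p under 0.05 (0.577% of all genes) and 0% of all genes called; DESeq2 called none.

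Other lists show what moved beside these genes between states. Of 25 further fibroblast genes tested in WT lines, 21 fell and 2 rose in NPCs against serum, with a median of -2.74, and 20 rose in serum against 2i. The chemokine Cxcl12 and elastin (Eln) were the 2 that rose in NPCs, at 1.15 and 1.53. Of 15 collagen-processing genes, 14 fell in NPCs with a median of -1.31, and Plod2, a lysyl hydroxylase, rose. In serum against 2i, 8 of these 15 rose and 3 fell. Of 10 basement membrane genes, 10 fell in NPCs with a median of -1.28, while in serum against 2i 3 rose and 5 fell. The 3 that rose were Col4a1, Col4a2 and Lamb1, which encode collagen IV chains and a laminin chain.

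Macrophage genes went with the fibroblast genes. Of 14 macrophage genes tested all 14 fell in WT NPCs against serum, with a median of -8.20, and 10 rose in serum against 2i. Their sum over 15 genes was 5.92 to 12.3 CPM in NPC libraries, 173 to 784 CPM in serum libraries and 46.2 to 248 CPM in 2i libraries. Lyz2, the lysozyme of myeloid cells, was 0 to 1.00 CPM in NPC libraries, with 15 of 24 at 0, 86.5 to 451 CPM in serum libraries and 9.92 to 119.8 CPM in 2i libraries. Xist fell in WT NPCs against serum, at -2.21, and rose in serum against 2i, at 2.79. Of the further lists in WT NPCs against serum, 3 of 4 smooth muscle, 4 of 4 endothelial, 7 of 7 extraembryonic endoderm, 5 of 6 early mesoderm and 7 of 7 embryonic stem cell genes fell and none rose. Among 6 neural crest genes 2 rose and 3 fell, and among 7 neural progenitor genes 5 rose and none fell. In serum against 2i, 2 of 4 smooth muscle genes rose and 1 fell, 2 of 4 endothelial genes rose and 2 fell, and 5 of 7 extraembryonic endoderm genes rose and 1 fell. Early mesoderm genes rose in 5 of 6 cases there, neural crest genes rose in 3 of 6 and fell in 1, stem cell genes rose in 2 of 7 and fell in 4, and neural progenitor genes rose in 5 of 7 and fell in 1. The part of macrophages or of cells with an inactive X in the fibroblast results was not tested.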

How the data were processed

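Per the labels, polyadenylated RNA was extracted with Trizol, libraries were made with a Lexogen SENSE mRNA kit, and, per the submitters' processing notes, RSEM and the mm9 genome were used. Versions are not given in the sources used here. The authors deposited 1 gene table per library with RSEM's expected count, which need not be whole, and TPM, which is scaled for transcript length and library. From 4.654% to 7.855% of expected counts were not whole, and counts were rounded before testing. Of 24990 rows, 23822 were matched to names by gene ID and 1139 by transcript, and 29 had no name and held 0.675% to 6.048% of a library's counts. Unnamed rows stayed in library totals and tests, since each carries a gene ID. Total counts were 7566629 to 18553323 per library. Multi-mapped reads are shared out by RSEM, so counts of near-identical genes are estimates.

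CPM is the expected count over the library total, times 1000000. Tests used edgeR 4.0.16 (R 4.3.3, limma 3.58.1): TMM scaling, the filterByExpr low-count filter and quasi-likelihood tests across all genes, with Benjamini-Hochberg adjustment and a threshold of 0.05. Fits were made per genotype across states, per state across genotypes, and over all 45 genotype libraries for interactions. Each line in each state had its own mean, with lines weighted equally in a contrast, and the libraries of a line entered as replicates. The p-values therefore leave out the spread between lines, except in the alternative with lines as replicates. SE is the absolute log2 fold change over the square root of F. The members, comparison lists and named genes were chosen with earlier results of these data known. Given in full were the member with the highest mean TPM of its role over the WT stem cell libraries, those with the largest and smallest NPC minus serum difference in WT lines, and every member called between genotypes or by knockdown. Others are named as examples, or as exceptions chosen after their values were seen. Alternatives were DESeq2 1.42.0, RLE or library-size scaling, no filter, lines as replicates, a replicate block and each library left out. Serum replicate 3 was also left out, and so, in fits within serum, was replicate 2, for which calls are not given here. Exact 95% intervals (on counts, 3 counts for the floor at 0) cover counting error only, and reads without molecular identifiers are not independent molecules.

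Replicate numbers were taken to pair libraries where every pair of same-numbered libraries had deviations that correlated over 0.1. That held in 2i (30 of 30 pairs, lowest 0.247) and between KD and Ctrl in serum (lowest 0.305) and NPCs (lowest 0.25). On simulated counts with 67 genes changed 2-fold, the NPC against serum fit in WT lines recovered 52 among 15145 genes, pKO against WT in serum 41 among 14197 and KD against Ctrl in serum 40 among 13644. In the same order these fits called 4, 9 and 11 genes that had not been changed. The simulated counts held no difference between lines and no shift shared by replicate number, so the recovery may not carry over to these libraries. Python 3.11.15, numpy 2.4.6, pandas 2.3.3, scipy 1.17.1 and matplotlib 3.10.9 were used.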

Additional observations from a re-analysis of the deposited data

Results flagged for a closer look

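In groups of 6 libraries, 126 gene groups were checked for a library far from the other 5, and 4 were found, a smaller share than the 1 in 20 that chance gives. Replicate 2 of pKO1 NPCs was the far library in 3 of them. It had 31.0 CPM of Col1a1, against 12.6 to 18.2 CPM in the other pKO NPC libraries. It had 36.9 CPM of Bgn, against 2.66 to 15.4 CPM in the others. Its S100a4 level of 0.084 CPM, with 0 in the others, is a single count, so that library had to stand apart. The fourth was replicate 2 of WT1 in 2i, with 23.4 CPM of Pdgfrb, against 14.2 to 17.6 CPM in the other WT 2i libraries.

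The NPC minus serum difference was lower in pKO than in WT lines for Pdgfrb, by an interaction estimate of -2.06, and for Thy1, at -1.70 (adjusted p under 0.05, edgeR quasi-likelihood test). Neither was refitted with any library left out.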

How the results depend on the processing

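Of the 15 genes given in full, none changed direction in a comparison where it was called, under any alternative run. With 1 library left out, the median of all members changed sign for KD against Ctrl in serum (-0.03 to 0.83) and for pInv against WT in serum (-0.17 to 0.68) and in 2i (-0.24 to 0.24). Counts of genes called kept within 1.5 times their reported value for every NPC against serum and serum against 2i comparison, under every alternative run. For pKO against WT in 2i the 2 calls became 4 with DESeq2, 0 with lines as replicates, 13 with the replicate block and 1 to 4 with 1 library left out. In NPCs the 7 calls became 0 with lines as replicates and 2 to 8 with 1 library left out. In serum the 0 calls became 31 with the replicate block, although the numbers pair libraries there only in 29 of 30 pairs (lowest correlation 0.097). They became 23 without replicate 3 of the serum libraries and 0 to 2 with 1 library left out. The cause was not tested. Calls without replicate 2 of the serum libraries are not given here. Over all genes the block gave 2912 calls in 2i, against 1263 without it, and 2887 in serum, against 845 without it. Where numbers pair libraries the block changed no other call. With 1 library left out, calls numbered 35 to 36 for NPC against serum in WT lines, 37 to 38 in pKO lines, 35 to 36 in pInv, 32 to 34 in KD lines and 29 to 32 in Ctrl. For serum against 2i they numbered 31 to 33 in WT lines, 32 to 35 in pKO lines and 27 to 35 in pInv. pInv against WT and KD against Ctrl stayed at 0 throughout. Lox in serum against 2i lost its call with DESeq2 in WT lines (adjusted p 0.0808) and in pInv (0.106). With 1 library left out Lox lost it in 5 of 12 fits in WT lines (adjusted p up to 0.0924), 5 of 6 in pInv and 1 of 12 in pKO lines. Fn1 in pInv lost its call with the block (0.0602) and in 5 of 6 such fits. In NPC against serum, Twist1 in KD lines lost its call in 6 of 12 such fits (adjusted p up to 0.0756, edgeR). Serpinf1 in Ctrl lost it there in 5 of 6 (adjusted p up to 0.184, edgeR). Groups of 3 libraries and, in NPCs, low counts limit what could be called.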
